A study of Mus musculus with 8 samples.

Results

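Corticothalamic neurons of cortical layer 6 were selected from single-nucleus RNA sequencing of mouse forebrain by the genes Foxp2 and Hs3st4, and 829 of the 44762 barcodes kept after filtering met the rule. Kept barcodes had at least 1000 unique molecular identifiers (UMIs, single captured RNA molecules), 300 or more genes, and no more than 5% of UMIs from mitochondrial genes. A kept barcode was counted as a layer 6 nucleus with at least 4 UMIs each of Foxp2 and Hs3st4, at least 1 each of Tle4 and Slc17a7 and none of Otof. At most 1 UMI of Tcf7l2 and at most 1 of Gad1 and Gad2 together were allowed, and none of Mog, Aqp4 and Cx3cr1. The 8 libraries came from male Swiss Webster mice aged 10 weeks, and each was made from a 2 mm cube of frozen forebrain next to the lesion site. There were 2 libraries in each of 4 groups: mice with control surgery, with BCAS, with TBI (traumatic brain injury), or with BCAS and TBI. BCAS stands in the labels as an abbreviation only, and the study's title ties it to cerebral hypoperfusion. The time between surgery and collection is not given in the sources used here. No transgene or deletion is named for any group. The libraries of a group are labelled as biological replicates and nothing says how many mice went into each, so p-values measure the spread between these libraries.

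Layer 6 corticothalamic neurons are glutamatergic pyramidal cells that send their axons to the thalamus and thereby return cortical output to the nuclei that feed the cortex. They also branch within the cortex, where they drive inhibitory interneurons and tune the gain of the layers above. Tbr1, Sox5 and Tle4 are known to direct their development, Foxp2 and Syt6 are commonly used to mark them, and acetylcholine is known to excite them through nicotinic receptors that hold the subunit encoded by Chrna5.

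The layer 6 nuclei numbered 55 and 156 in control, 51 and 151 in BCAS, 65 and 159 in TBI, and 148 and 44 in BCAS+TBI. Their summed UMIs ran from 285385 in BCAS+TBI 2 to 1563788 in BCAS 2, and their median UMIs per nucleus from 5181 to 9416. The libraries fell into sets of 4 by their total UMIs, each set with 1 library of every group: control 1, BCAS 1, TBI 1 and BCAS+TBI 2 had fewer (set 1), and control 2, BCAS 2, TBI 2 and BCAS+TBI 1 had more (set 2). In layer 6 nuclei 1897 of 10267 genes (18.5%) differed between the sets (edgeR quasi-likelihood test, adjusted p under 0.05), and the set was a term in the gene models. BCAS+TBI 2 stood apart from the other 7 libraries. In its summed layer 6 nuclei the ribosomal protein genes took 1.45% of UMIs against 0.189% to 0.434% elsewhere. Of its 44 nuclei, 3 that also held endothelial and haemoglobin UMIs had 1.11%, 7.30% and 7.38%, and without them the library stood at 0.558%. Any pair of libraries shared 5 to 20 barcodes, and 1 barcode of a layer 6 nucleus appeared in more than 1 library.

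The genes of the rule describe the selected nuclei and test nothing. The median nucleus held 7 UMIs of Foxp2 (range 4 to 29), 18 of Hs3st4 (4 to 122), 4 of Tle4 (1 to 27) and 3 of Slc17a7, the vesicular glutamate transporter of cortical pyramidal cells. At the edge of the rule, 133 nuclei had exactly 4 Foxp2 UMIs, and 149 more barcodes met every other condition with 3. For Hs3st4 these numbers were 16 and 7. Levels are given as CPM, the UMIs of a gene per 1000000 UMIs of all layer 6 nuclei of a library. Foxp2 stood at 908 to 1126 CPM, Hs3st4 at 1689 to 2793 and Tle4 at 435 to 616 over the 8 libraries.

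Markers of layer 6 corticothalamic cells outside the rule were read against other cortical pyramidal nuclei of the same libraries and against oligodendrocyte barcodes. The comparison nuclei were 478 mid-layer nuclei (Rorb at least 4, Cux2 at most 3 UMIs) and 686 upper-layer nuclei (Cux2 at least 4), each with Slc17a7 and at most 1 UMI each of Foxp2 and Hs3st4. Differences between these kinds of nuclei are descriptions with no test, since the nuclei were chosen by their own RNA, and levels are compared for the same gene only. Of the 12 markers, 7 lay in layer 6 nuclei above every mid-layer and every upper-layer library, and none lay below. Over the 3444 genes with at least 50 CPM in layer 6 nuclei, 3.83% lay above both kinds in this way and 2.67% below both. Several members of the lists lay under that level, and over all 10267 genes tested below the shares were 1.77% and 1.52%.

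Syt6, a synaptotagmin, stood at 59.6 to 145 CPM in layer 6 nuclei and at no more than 6.34 in any mid-layer or upper-layer library. By library its level was 127 and 145 CPM in control, 69.5 and 112 in BCAS, 79.3 and 116 in TBI, and 99.4 and 59.6 in BCAS+TBI. Both control libraries lay above the other 6, as for 1.94% of tested genes, and BCAS+TBI 2 was lowest. Thsd7b, a membrane protein with thrombospondin domains, stood at 578 to 986 against 25.7 to 102 in mid-layer and 17.8 to 59.0 in upper-layer nuclei. Zfpm2, a cofactor of GATA transcription factors, stood at 809 to 1631 against 45.6 to 257 and 25.1 to 199. Garnl3, Sox5, Col5a1 and Rprm were the other members above both. Tbr1, the transcription factor that sets deep-layer identity, had 28 to 57.0 in layer 6 nuclei and 9.51 to 40.0 in mid-layer nuclei, so these ranges overlapped, while all 8 libraries lay above the 9.83 to 25.1 of upper-layer nuclei.

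Detection of these markers in single nuclei was compared after each barcode was thinned to 4000 UMIs, in the 794 layer 6 nuclei and 558 oligodendrocyte barcodes (at least 2 Mog UMIs, no Slc17a7) that were deep enough. This left out 35 layer 6 nuclei. Syt6 was found in 32.5% of layer 6 nuclei against 5.02% of oligodendrocyte barcodes, Tbr1 in 17.1% against 1.43% and Col5a1 in 29.6% against 0.896%. Without thinning, Syt6 was found in 49.0% of layer 6 and 4.45% of oligodendrocyte barcodes. After thinning, Zfpm2 was found in 94.3% against 45.5% and Thsd7b in 84.5% against 23.1%, so both were also common in these oligodendrocyte barcodes. The 558 were the deeper ones of 1618, and over all 1618 without thinning the shares were lower, at 32.6% and 13.6%. The source of these UMIs was not tested. Ntsr1, the neurotensin receptor gene used to drive Cre in these neurons, was found in 3.53% against 1.61%, and Gpr139 in 1.39% against 1.79%, which is at background. Of the 12 markers outside the rule, 7 lay above both other cortical kinds, while Tbr1, Fezf2, Crym, Ntsr1 and Gpr139 did not. After thinning, Fezf2 was found in 7.93% against 1.61% and Crym in 14.4% against 2.15%, and Ntsr1 and Gpr139 were near or at background.

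**Figure D1:**
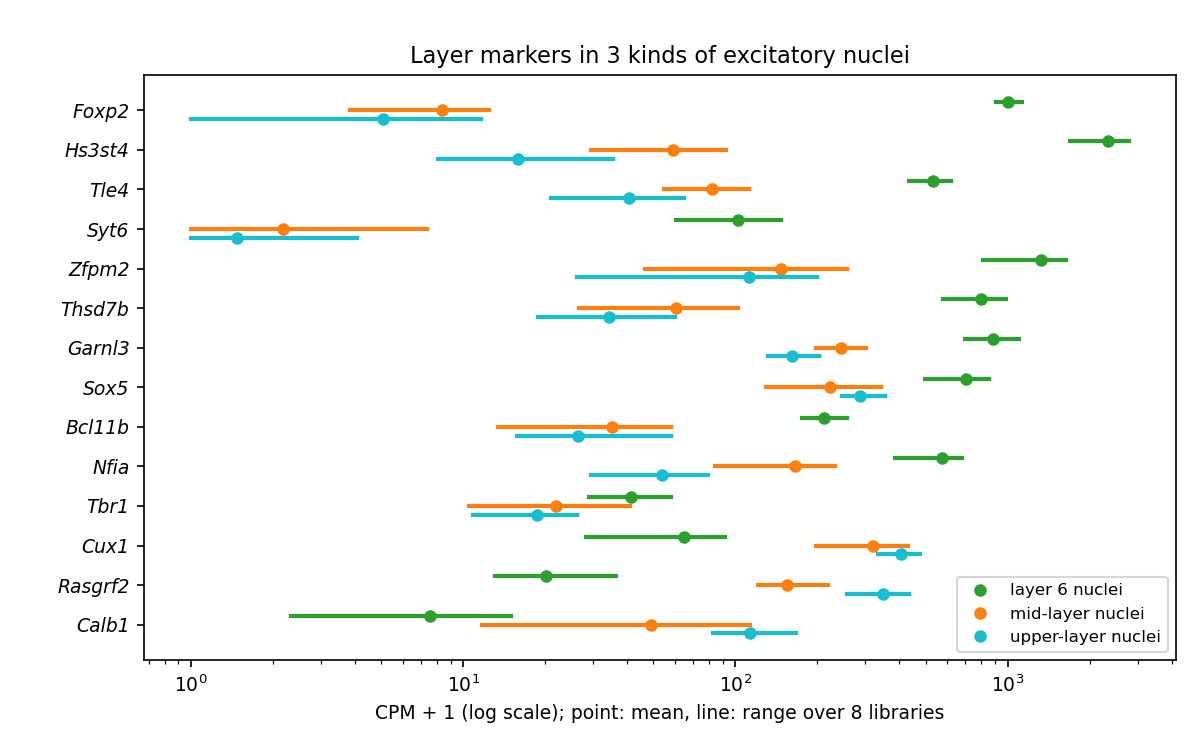
Layer markers in layer 6, mid-layer and upper-layer nuclei. The x axis gives CPM plus 1 on a log scale, points are means and lines the range over 8 libraries; Foxp2, Hs3st4 and Tle4 were used to choose the nuclei. Syt6, Zfpm2, Thsd7b, Garnl3, Sox5, Bcl11b and Nfia lie above both other kinds of nuclei, Tbr1 overlaps mid-layer nuclei, and Cux1 and Rasgrf2 lie below both.

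Layer 6b lies beneath layer 6, and its markers Ctgf, Cplx3, Nxph4, Moxd1 and Nr4a2 were read nucleus by nucleus. After thinning, Ctgf was found in 3.40% of layer 6 nuclei against 0.717% of oligodendrocyte barcodes, Cplx3 in 1.76% against 0.538% and Nr4a2 in 6.42% against 2.69%. Nxph4 (0.504% against 0.717%) and Moxd1 (1.01% against 2.15%) were at background. The 5 markers had at least 3 UMIs together in 47 of the 829 nuclei (5.67%), 37 of them with Nr4a2 and 30 with Ctgf. The same held for 8 of 1618 oligodendrocyte barcodes (0.494%), which were shallower, with library medians of 2096 to 3178 UMIs. By library these 47 made up 3.64% to 7.95% of the layer 6 nuclei. They held 41.2 CPM of Syt6 against 118 in the other 782 nuclei, 3.58 of Rprm against 20.6 and 668 of Foxp2 against 1023, and more Thsd7b, at 1316 against 803. These are pooled values over libraries, and the 47 nuclei were the deeper ones, with a median of 11117 UMIs against 7543. The layer 6b markers summed to 37.6 to 99.3 CPM in layer 6 nuclei.

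Markers of other cell types were summed by list. Osr1, a marker of intratelencephalic neurons of layer 6, was at 0 to 0.761 CPM, and Oprk1, the other marker on that list, at 0 to 6.62. The 4 layer 5 extratelencephalic markers summed to 12.1 to 19.9 CPM against 42.7 to 58.0 in all other Slc17a7-positive nuclei, with Chrna2 at 0. The 4 layer 5 near-projecting markers varied widely between libraries, with sums of 3.02 to 105 CPM. Their sums were 159 to 280 in all other Slc17a7-positive nuclei, 39.1 to 279 in mid-layer nuclei and 3.55 to 119 in upper-layer nuclei. Upper-layer markers summed to 54.3 to 147 against 1316 to 1688 in upper-layer nuclei, hippocampal markers to 100.2 to 364 and thalamic markers to 10.4 to 129.6. In the other Slc17a7-positive nuclei the hippocampal sum was 780 to 1092 and the thalamic sum 228 to 334. Both layer 6 maxima were in a BCAS+TBI library. Without nuclei of at least 3 endothelial UMIs no library exceeded 272 for hippocampal and 49.6 for thalamic markers. Astrocyte markers summed to at most 52.6, oligodendrocyte precursor markers to at most 14.1 and microglial markers to at most 82.8. Interneuron markers summed to 87.1 to 140.2 against 553 to 736 in the other Slc17a7-positive nuclei. Oligodendrocyte markers summed to 99.3 to 155, much as in upper-layer nuclei (95.9 to 159.7), and the 8 striatal projection markers to 526 to 1195, where the other Slc17a7-positive nuclei had 630.1 to 970.1. Endothelial and erythroid markers reached 1339 and 8399 CPM in BCAS+TBI 2. Aqp4, Mog and Cx3cr1 were at 0 by the rule.

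The 20 genes that set these nuclei apart most evenly were ranked by the lowest of their 8 library ratios to all other Slc17a7-positive nuclei, among genes with at least 50 CPM and without those of the rule. They were Arhgap25, Rai14, Cdh18, Garnl3, Tmem178, Grik3, Thsd7b, Syt6, Mgat4c, Rell1, Ipcef1, Hs3st2, Etl4, Col5a1, Trabd2b, Zfpm2, Slc35f1, Igsf21, Abi3bp and Sdk2. Ratios here are log2 values with 10 CPM added. Arhgap25 led with a median log2 ratio of 2.51 (2.19 to 2.74) and 69.4 to 109.9 CPM against 7.12 to 8.86 in the other nuclei. Rai14, an actin-associated ankyrin repeat protein, followed with 2.27 (2.03 to 2.44), and Cdh18, a classical cadherin, with 2.30 (1.98 to 2.50). Cdh18 was abundant, at 1777 to 3951 CPM against 444 to 692. Adhesion molecules on the list also included Igsf21, which acts at inhibitory synapses, and Sdk2, a homophilic adhesion protein. Hs3st2 encodes a heparan sulfate sulfotransferase of the same family as the rule's Hs3st4, and Mgat4c and Col5a1 encode a glycosyltransferase and a collagen chain. Of the 3444 genes, 44 had a log2 ratio above 1 in all 8 libraries and 57 one below -1 in all 8.

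Transcription factors of the deep layers formed a list of 10. All 4 of Sox5, Zfpm2, Bcl11b and Nfia lay above both other kinds of nuclei in every library, and 8 of the 10 lay above upper-layer nuclei, as 7.14% of the 3444 genes and 3.64% of the 10267 did. Bcl11b, which directs subcerebral projection neurons, stood at 175 to 256 CPM against 12.4 to 57.0 in mid-layer and 14.7 to 56.8 in upper-layer nuclei. Nfia, a nuclear factor I protein, stood at 386 to 680.4 against 82.9 to 232 and 28.4 to 78.0. On the other side, Cux1, a homeodomain factor of the upper layers, had 27.2 to 90.8 CPM in layer 6 nuclei against 196 to 429 and 334 to 477, and Rasgrf2, a Ras exchange factor, 12.1 to 35.5 against 119.9 to 218 and 256 to 434. Cux1 and Rasgrf2 lay below both kinds of nuclei in every library.

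Glutamate receptor genes differed by subunit. Among 13 ionotropic genes, Gria2, Grik3 and Grik4 lay above both other kinds of nuclei and Gria4 below both. Of the 3444 genes, 3.83% lay above and 2.67% below both, and of the 10267 genes 1.77% and 1.52%. Grik3, a kainate receptor subunit, stood at 259 to 444 CPM, with median log2 ratios of 2.58 against mid-layer and 3.81 against upper-layer nuclei. Grik4, its high-affinity partner subunit, had ratios of 2.37 against mid-layer and 1.28 against upper-layer nuclei. Gria2, the AMPA receptor subunit that limits calcium entry, was only a little higher, with ratios of 0.36 against mid-layer and 0.24 against upper-layer nuclei, and Gria4, another AMPA subunit, was lower, with -1.10 against mid-layer and -0.84 against upper-layer nuclei. Of 7 metabotropic genes, Grm8 lay above both, at 659 to 1213 CPM against 62.2 to 363 and 167 to 379, and Grm7 below both, at 739 to 1362 against 1940.5 to 2871 and 1833 to 2637. Grm7 and Grm8 both encode presynaptic group III receptors, and they stood on opposite sides.

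Receptors for other transmitters gave fewer separations. Gabra2, a GABA-A receptor alpha subunit, was the 1 of 12 GABA-A genes below both other kinds, at 77.1 to 127 CPM against 183 to 387 and 299.8 to 477, and no GABA-A gene lay above both. Of 7 cholinergic genes, the nicotinic subunits Chrna4 and Chrna5 lay above both. The shares above and below both were 3.83% and 2.67% of the 3444 genes, and 1.77% and 1.52% of the 10267 genes. Chrna5 was low in absolute terms, at 33.2 and 21.5 CPM in control, 33.1 and 15.3 in BCAS, 8.35 and 15.2 in TBI, and 10.4 and 21 in BCAS+TBI, and it was at 0 in every upper-layer library and at most 6.22 in mid-layer nuclei. Chrna4, which forms receptors together with that subunit, stood at 19.8 to 42.9 against 4.76 to 12.7 and 0 to 5.02.

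Ion channel genes separated the layer 6 nuclei mostly through potassium and calcium channels. Of 19 potassium channel genes, Kcnb2, Kcnc2, Kcnh1, Kcnh5, Kcnip4 and Kcnq5 lay below both other kinds of nuclei and Kcnn2 above both. Among the 3444 genes 2.67% lay below and 3.83% above both, and among the 10267 genes 1.52% and 1.77%. Kcnip4, which binds the A-type channel Kv4, stood at 2029 to 4462 CPM against 6277 to 9888 and 9035 to 14977. Kcnq5, a subunit of the M-type channel, had log2 ratios of -1.51 against mid-layer and -1.59 against upper-layer nuclei, Kcnb2, a delayed rectifier, -1.92 against mid-layer and -2.22 against upper-layer nuclei, and Kcnh5 -2.36 against mid-layer and -1.43 against upper-layer nuclei. Kcnn2, a calcium-activated channel of small conductance, had ratios of 1.01 against mid-layer and 1.08 against upper-layer nuclei. Among 13 calcium channel genes, Cacna1b, Cacna2d1 and Cacna2d3 lay below both and none above. Cacna2d3, an auxiliary subunit, stood at 56.3 to 248 CPM against 841 to 1128 and 487 to 929. None of the 10 sodium and HCN channel genes lay above or below both, and neither did any of the 12 genes of synaptic release outside the rules.

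Axon guidance genes lay on both sides, with 4 of 22 above and 7 below both other kinds. Over the 3444 genes 3.83% lay above and 2.67% below both, and over the 10267 genes 1.77% and 1.52%. The receptors Nrp1, for class III semaphorins, and Ephb1, for B-type ephrins, were above. Nrp1 stood at 186 to 330.3 CPM, with median log2 ratios of 2.86 against mid-layer and 3.07 against upper-layer nuclei. The semaphorins Sema3e and Sema6d were also above, with Sema3e at 79.5 to 162 against 4.14 to 74.8 and 0 to 22.2. Slit2, Slit3, Epha4, Plxnd1, Unc5c, Unc5d and Ntng2 were below. Unc5d, a netrin receptor, showed the lowest ratios of these 7, -3.26 against mid-layer and -3.19 against upper-layer nuclei. Plxnd1, the receptor for the ligand encoded by Sema3e, had 0 to 14.0 CPM in layer 6 nuclei against 21.4 to 49.8 and 27.8 to 42.6, so ligand and receptor genes stood on opposite sides.

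**Figure D2:**
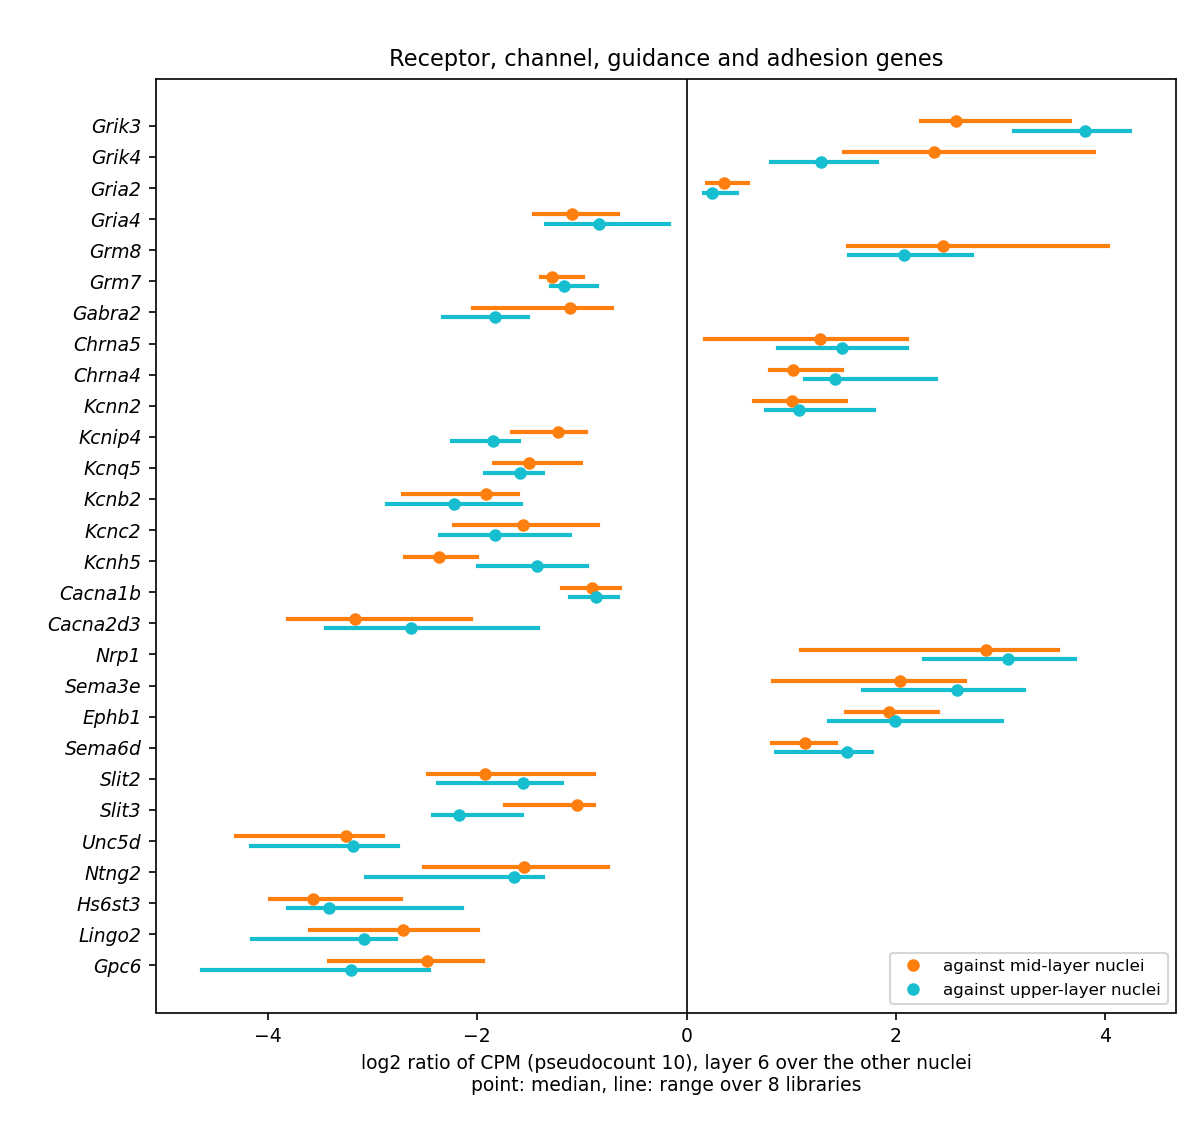
Receptor, channel, guidance and adhesion genes in layer 6 nuclei relative to mid-layer and upper-layer nuclei of the same library. The x axis gives the log2 ratio of CPM with 10 added, points are medians and lines the range over 8 libraries; the genes shown were picked after their values were seen. Grik3 (3.81 against upper-layer nuclei) and Nrp1 lie far to the right, and Unc5d, Hs6st3, Lingo2, Gpc6 and Cacna2d3 far to the left.

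Whether the surgeries changed how many layer 6 nuclei were captured was asked through their share of kept barcodes. The share was 1.09% and 2.76% in control, 1.01% and 2.39% in BCAS, 1.32% and 2.21% in TBI, and 2.64% and 0.886% in BCAS+TBI. In every group the lower value was that of the library in set 1. The 4 libraries with TBI had a mean share of 1.76% ± 0.802 (SD, n = 4) against 1.81% ± 0.894 (SD, n = 4) without, a difference of -0.0499 percentage points (exact permutation test over 70 assignments, two-sided, p = 0.914, adjusted over both surgeries 0.914). With BCAS the mean was 1.73% ± 0.909 (SD, n = 4) against 1.85% ± 0.782 (SD, n = 4) without, a difference of -0.116 points (same exact test, p = 0.714, adjusted 0.914). Both differences were smaller than these SDs, which hold the gap between the sets, and the smallest p that this test allows is 0.0286. With assignments kept within the sets, p was 0.833 for TBI and 0.444 for BCAS (exact permutation test over 36 assignments, two-sided). Adjusted over both surgeries it was 0.833 for each, and the smallest p possible there is 0.0556. Within the sets the TBI difference was 0.0512 and -0.151 points and the BCAS difference -0.253 and 0.0219 points, so neither kept a direction.

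The sets differed more than the groups, and the rule that chose the nuclei counts UMIs. The mean share was 1.08% ± 0.181 (SD, n = 4) in set 1 and 2.50% ± 0.247 (SD, n = 4) in set 2. After each barcode was thinned to 4000 UMIs the means were 1.02% ± 0.0995 and 1.56% ± 0.191 (SD, n = 4 each), and these ranges still did not overlap, at 0.913% to 1.13% and 1.37% to 1.80%. Neither surgery's difference in share passed its test, and shares alone could not tell fewer surviving cells from a different mix of dissected tissue.

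**Figure D3:**
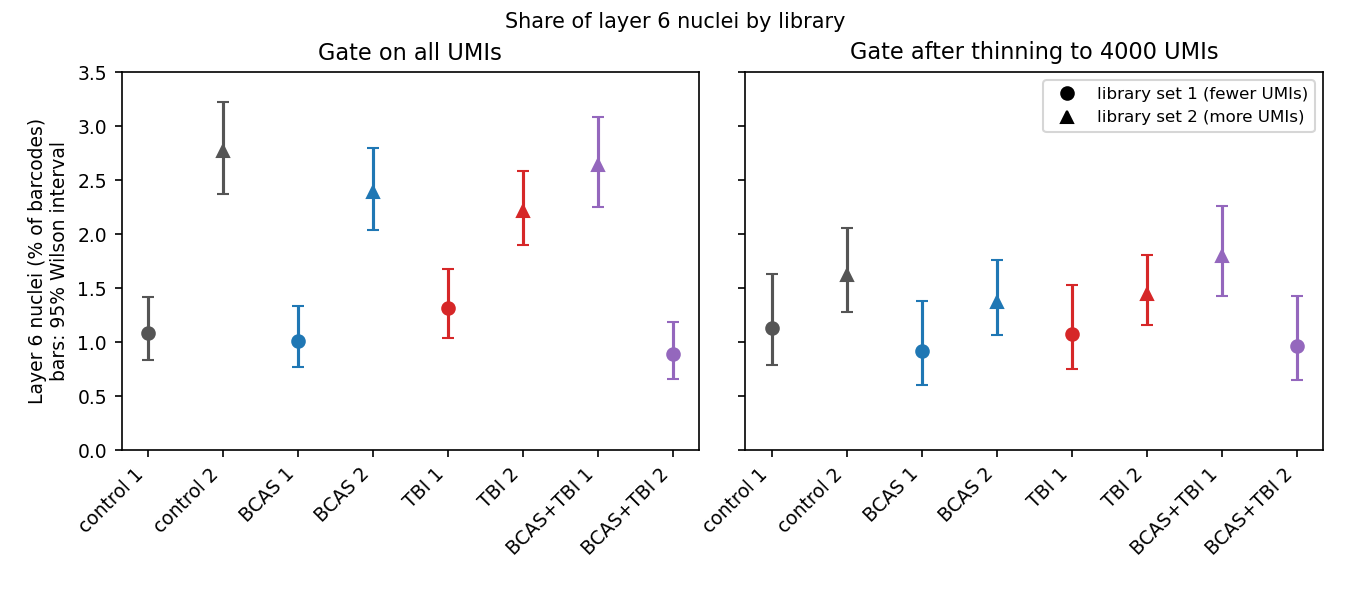
Share of layer 6 nuclei among kept barcodes of each library, as counted (left) and after thinning every barcode to 4000 UMIs (right). Bars are Wilson 95% intervals, which cover counting error only; circles are set 1 and triangles set 2. Every group has 1 low and 1 high library on the left (0.886% to 1.32% and 2.21% to 2.76%), and the gap narrows on the right.

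Gene expression in layer 6 nuclei was compared over libraries with counts summed per library, and no gene passed in any of the 4 comparisons. In 10267 genes tested, the number with an adjusted p under 0.05 (edgeR quasi-likelihood test, Benjamini-Hochberg) was 0 (0%) for TBI averaged over BCAS, for BCAS averaged over TBI, for their interaction, and for BCAS+TBI against TBI. At an unadjusted p under 0.05 there were 307 (2.99%), 244 (2.38%), 315 (3.07%) and 328 (3.19%). DESeq2 called 0 genes in each comparison and had 77, 48, 63 and 90 at an unadjusted p under 0.05. The counts depended on the BCAS+TBI libraries. Without BCAS+TBI 1, 126, 80, 88 and 238 genes passed, and the group then consisted of the library that stood apart, assumed to vary like the others. Of these, 38, 27, 41 and 60 were ribosomal protein genes. Without BCAS+TBI 2 instead, 11, 2, 5 and 4 genes passed. The genes named next had the smallest p-values and did not pass.

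With TBI, Egfem1, which encodes a protein with EGF-like domains, had the smallest p-value (chromosome 3, 29082023 to 29691209, plus strand, GRCm38). Its level was 193 and 279 CPM in control, 199 and 248 in BCAS, 113 and 172 in TBI, and 132 and 123 in BCAS+TBI. The 4 libraries with TBI lay at 113 to 172, below the 193 to 279 of the 4 without, a separation that 1.59% of all tested genes showed in either direction and 0.74% in this one. The log2 fold change was -0.79 (SE 0.13, adjusted p = 0.216), and it was -0.69 and -0.76 within the sets. In 12 alternative analyses its adjusted p ran between 0.000241 and 1.00 and passed in 3 of 12, among them the one without 7 nuclei that held at least 3 endothelial UMIs (log2 fold change -0.80, adjusted p = 0.0204, edgeR). The TBI effect on Egfem1 in layer 6 minus that in mid-layer nuclei was -0.17 in log2 (SE 0.21, adjusted p = 0.978, limma). Without the 7 nuclei it was -0.18 (SE 0.22) against mid-layer and -0.03 (SE 0.15) against upper-layer nuclei. The drop was thus not shown to be particular to layer 6 nuclei.

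Hs6st3, another heparan sulfate sulfotransferase, was the gene with the second smallest p-value for TBI (chromosome 14, 119138341 to 119869815, plus strand). It stood at 148 and 160.2 CPM in control, 116 and 167 in BCAS, 271 and 372 in TBI, and 193 and 158 in BCAS+TBI. The 2 libraries with TBI alone were above the other 6, as for 1.72% of tested genes, and BCAS+TBI lay near the control and BCAS libraries. The log2 fold change was 0.67 (SE 0.13, adjusted p = 0.372) for TBI, -0.48 (SE 0.13, adjusted p = 1.00) for BCAS and -0.90 (SE 0.18, adjusted p = 0.459) for BCAS+TBI against TBI, none of which passed. These 3 comparisons share libraries. For BCAS+TBI against TBI it passed in 4 of 12 alternative analyses, with the looser gate, with thinning, without nuclei of high UMIs and without a filter on low counts. In mid-layer and upper-layer nuclei Hs6st3 was far higher, at 1869.8 to 2640.3 and 1658 to 2054. The 5 upper-layer markers, with Otof at 0 by the rule, summed in layer 6 nuclei to 54.3 and 91.8 CPM in control, 116 and 121.5 in BCAS, 146 and 147 in TBI, and 67.4 and 98.1 in BCAS+TBI (the lower value of each group first), and their part in the Hs6st3 values was not tested.

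Rab40b, a small GTPase of the ubiquitin ligase system, was at 96.6 and 98.5 CPM in control, 119 and 106 in BCAS, 79.3 and 67.7 in TBI, and 56.1 and 77.1 in BCAS+TBI, with all libraries with TBI below all without. Its log2 fold change was -0.65 (SE 0.15, adjusted p = 0.952). Rtn4rl1, a Nogo receptor relative, and Catspere1, a subunit of the sperm calcium channel, had higher means with TBI but rested on few UMIs, at 0 to 24.5 and 0 to 24.3 CPM. For Rtn4rl1 the libraries with TBI lay above those without, as they did for 0.847% of tested genes, and for Catspere1 they overlapped. Their log2 fold changes were 2.28 (SE 0.53, adjusted p = 0.952) and 3.13 (SE 0.74, adjusted p = 0.952).

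With BCAS, Npas3, a neuronal transcription factor with a PAS domain, had the smallest p-value, at 33.2 and 16.1 CPM in control, 56.3 and 75.5 in BCAS, 39.7 and 34.2 in TBI, and 44.1 and 63.1 in BCAS+TBI. The libraries with BCAS (44.1 to 75.5) lay above those without (16.1 to 39.7). Of all tested genes, 1.37% did not overlap in either direction and 0.623% in this one. Its log2 fold change was 1.11 (SE 0.24, adjusted p = 1.00). Arc, the activity-regulated gene whose protein acts at excitatory synapses, was at 66.4 and 81.8 CPM in control, 43.0 and 23.7 in BCAS, 71.0 and 59.3 in TBI, and 49.7 and 56.1 in BCAS+TBI. Its libraries with BCAS (23.7 to 56.1) lay below those without (59.3 to 81.8), as for 0.75% of tested genes, and were lowest with BCAS alone. The log2 fold change was -0.86 (SE 0.20, adjusted p = 1.00). Hat1, a histone acetyltransferase, had 1.30 (SE 0.36, adjusted p = 1.00), and Ppm1l, a protein phosphatase, -0.48 (SE 0.13, adjusted p = 1.00).

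**Figure D4:**
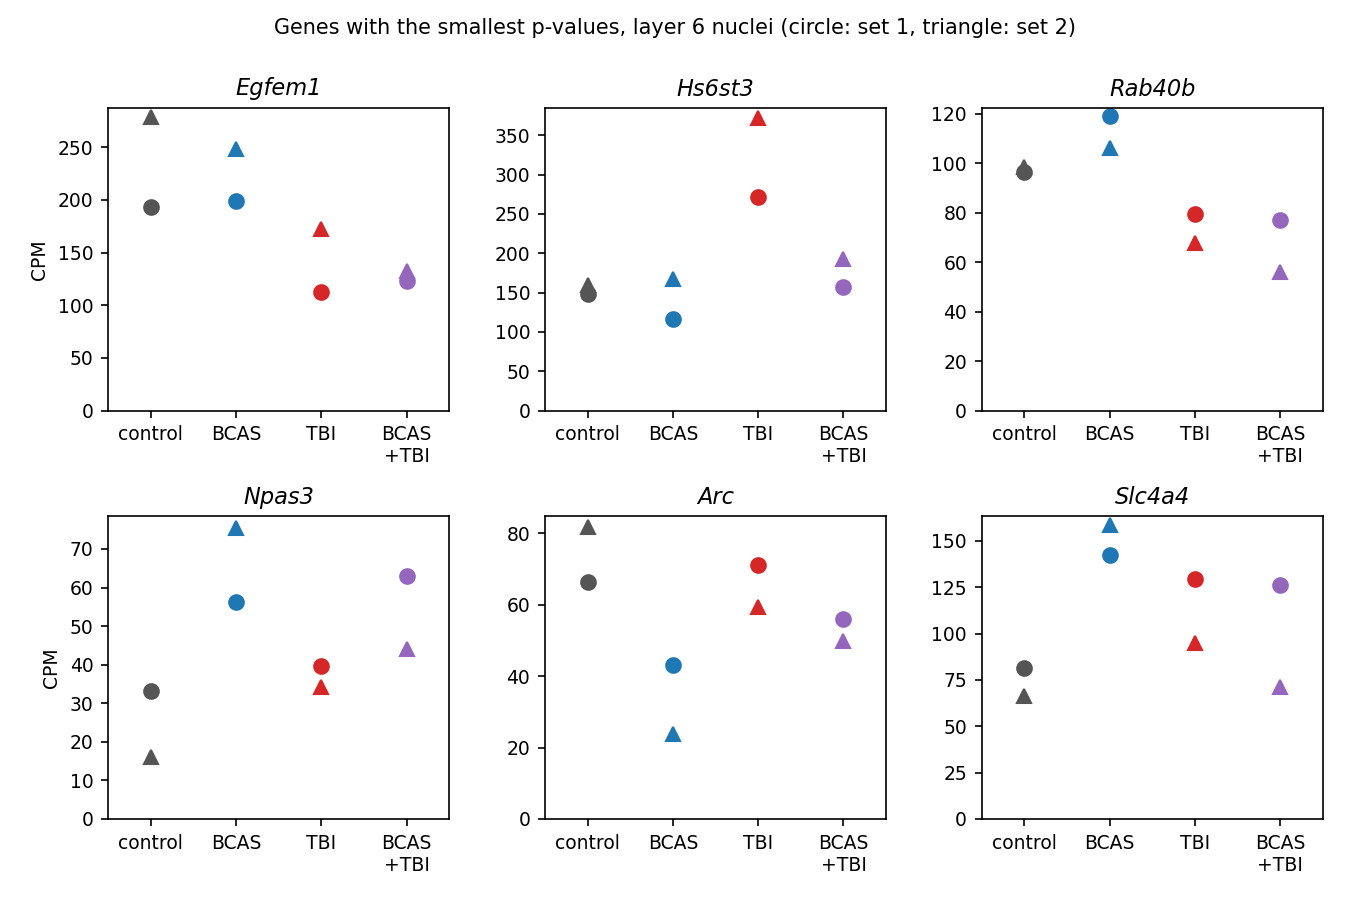
Levels of 6 genes in layer 6 nuclei by group, in CPM from 0, with 1 point per library (circles set 1, triangles set 2). Egfem1 and Rab40b are lower in the 4 libraries with TBI, Hs6st3 is highest in the 2 with TBI alone (271 and 372), Npas3 is higher and Arc lower with BCAS, and none passed the test across all genes.

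The interaction asks whether TBI acted differently in mice with BCAS. Slc4a4, a sodium bicarbonate cotransporter, was at 81.5 and 66.4 CPM in control, 142 and 159 in BCAS, 129 and 95.1 in TBI, and 71.4 and 126 in BCAS+TBI, so that every library with a single surgery lay above both control libraries, as for 3.95% of tested genes, and BCAS+TBI spanned from near control to near BCAS. Its interaction on the log2 scale was -1.42 (SE 0.33, adjusted p = 1.00). Unc5c, the netrin receptor, had -1.19 (SE 0.29, adjusted p = 1.00) and Cux1 -1.52 (SE 0.40, adjusted p = 1.00). Mid1, a ubiquitin ligase, was at 6.04 and 8.71 CPM in control, 86.1 and 125 in BCAS, 2.09 and 105 in TBI, and 10.4 and 73.6 in BCAS+TBI, so its libraries within BCAS+TBI and within TBI differed several-fold, and its interaction was -5.09 (SE 1.22, adjusted p = 1.00). Without TBI 2 it was 0.15 on the log2 scale. Htr2a, a serotonin receptor, had -3.45 (SE 0.94, adjusted p = 1.00) from 0 to 31.3 CPM.

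BCAS+TBI against TBI was led by blood and vessel genes that came from 1 library. The haemoglobin gene Hbb-bs stood at 6.41 CPM in BCAS+TBI 1 and 4944 in BCAS+TBI 2, and at no more than 29.2 in the other libraries. Cldn5, the tight junction protein of endothelium, stood at 0 and 385. Hba-a1, another haemoglobin gene, stood at 6.41 and 2635, and Pltp, a phospholipid transfer protein, at 5.61 and 151. Their log2 fold changes were 5.44 (SE 1.09, adjusted p = 0.459) and 3.89 (SE 0.84, adjusted p = 0.552). Those of the first pair were 5.66 (SE 1.08, adjusted p = 0.459) for Hbb-bs and 5.40 (SE 1.12, adjusted p = 0.459) for Cldn5. In BCAS+TBI 2 the 4 endothelial markers summed to 1339 CPM against 3.31 to 27.1 in the other libraries, and the 4 erythroid markers to 8399 against 12.8 to 62.6. Of its 44 nuclei, 3 held 10, 128 and 236 endothelial UMIs together with 764, 1351 and 258 haemoglobin UMIs. Another 4 nuclei, in control 2, BCAS 2 and TBI 1, held at least 3 endothelial UMIs and no haemoglobin. Without these 7 nuclei no library exceeded 33.1 endothelial and 99.3 erythroid CPM, and the log2 fold changes were -0.18 for Hbb-bs and 0.52 for Cldn5. No gene passed in this comparison without them either, and 2 genes then passed for TBI, Egfem1 and the predicted gene Gm14172 (log2 fold change 1.25, adjusted p = 0.0201, edgeR).

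**Figure D5:**
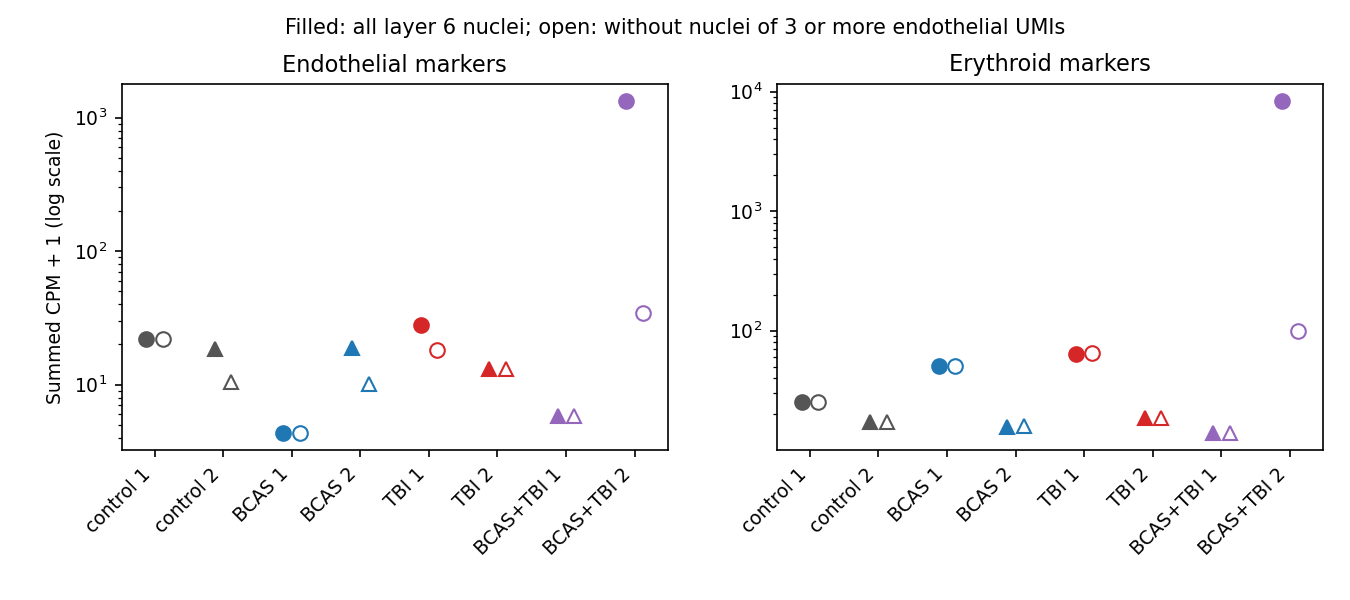
Summed endothelial (left) and erythroid (right) marker genes in layer 6 nuclei of each library, in CPM plus 1 on a log scale. Filled points hold all nuclei and open points leave out the 7 nuclei with at least 3 endothelial UMIs; BCAS+TBI 2 falls from 1339 to 33.1 and from 8399 to 99.3.

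Whether TBI acted differently on layer 6 nuclei than on their neighbours was tested on the difference of log2 levels within each library (limma). No gene passed against mid-layer nuclei (0 of 6733, 0%, with 323 or 4.8% at an unadjusted p under 0.05) or upper-layer nuclei (0 of 9070, 0%, with 433 or 4.77%). Without BCAS+TBI 1, 47 and 30 genes passed. Without BCAS 2, 4 and 18 passed, and without control 2, 3 passed against upper-layer nuclei. Kctd8, an auxiliary subunit of GABA-B receptors, came closest against mid-layer nuclei, with a log2 difference of 2.16 (SE 0.37, adjusted p = 0.0583). Its layer 6 levels were 3.02 and 38.2 CPM in control, 6.62 and 22.4 in BCAS, 37.6 and 34.2 in TBI, and 40.1 and 63.1 in BCAS+TBI, of which control 1 and BCAS 1 were low. In mid-layer nuclei the mean was 69.4 ± 23.3 CPM with TBI and 109 ± 46.3 without (SD, n = 4 each). Kctd8 passed in 3 of 6 alternative analyses and in 2 of 8 with a single library left out, those without BCAS 2 and without BCAS+TBI 1, and the adjusted p was 0.0499 without the 7 nuclei (limma). Rtn4rl1 and Galntl6, a glycosyltransferase, had 2.02 (SE 0.49, adjusted p = 0.659) and 0.62 (SE 0.15, adjusted p = 0.659) against mid-layer nuclei. Erbb4, a neuregulin receptor, had -2.69 (SE 0.54, adjusted p = 0.255) against upper-layer nuclei. Most of this lay in the upper-layer nuclei, at 127 ± 116 CPM with TBI and 21.4 ± 19.2 without, where layer 6 nuclei had 75.8 ± 23.9 CPM with TBI and 121 ± 88.6 without (SD, n = 4 each). The layer 6 log2 fold change alone was -0.63 (SE 0.29, adjusted p = 1.00) by edgeR. Hs6st3 was among the 5 smallest p-values in both tests, with 0.71 (SE 0.14, adjusted p = 0.178) against mid-layer and 0.71 (SE 0.14, adjusted p = 0.255) against upper-layer nuclei. So was Gpc6, a glypican, with 0.83 (SE 0.21, adjusted p = 0.659) and 1.19 (SE 0.25, adjusted p = 0.255). Lingo2, a leucine-rich repeat membrane protein, and Cdh18 had 0.80 (SE 0.17, adjusted p = 0.255) and -0.70 (SE 0.14, adjusted p = 0.255) against upper-layer nuclei, and Cdh18 in layer 6 nuclei alone had -0.27 (SE 0.13, adjusted p = 1.00) by edgeR. Hs6st3, Gpc6 and Lingo2 were each lower in layer 6 nuclei than in both other kinds in every library, and Cdh18 was higher.

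Gene lists were described by their counts, and no member of any list passed. Of 16 immediate early genes, which neurons switch on with activity, 11 were measured well enough to test. With TBI, 10 of these 11 had a higher level and the median log2 fold change was 0.30, where 51.1% of all 10267 genes were higher and the median was 0.01. With BCAS, 9 of the 11 were lower and the median was -0.30, where 48.9% of all genes were higher and the median was -0.01. The 16 genes summed to 830 to 1479 CPM in control, 596 to 985 in BCAS, 1006 to 1207 in TBI and 1065 to 1178 in BCAS+TBI. TBI alone thus lay within the control range, and the libraries with BCAS alone enter both tallies. For the interaction, 7 of the 11 were higher and the median was 0.49, where 50.3% of all genes were higher and the median was 0.003. Egr1, a zinc finger factor of this list, was at 48.3 and 96.5 CPM in control, 19.9 and 40.9 in BCAS, 93.9 and 49.4 in TBI, and 69.0 and 80.6 in BCAS+TBI, so libraries with and without each surgery overlapped. Over the other analyses, leaving out each library included and the fit without a filter left aside, the list's median lay between 0.23 and 0.56 for TBI and between -0.41 and -0.18 for BCAS. Of the layer 6 markers outside the rule, 10 of 11 were lower with TBI with a median of -0.09, and 8 of 11 lower with BCAS with a median of -0.11. Over the other analyses these medians lay between -0.31 and -0.03 for TBI and between -0.18 and 0.05 for BCAS. The 12 markers summed lowest in a BCAS+TBI library, at 2842 CPM against 3683 to 4683 in the control, BCAS and TBI libraries. For Syt6 the log2 fold changes were -0.32 (SE 0.15, adjusted p = 1.00) and -0.40 (SE 0.15, adjusted p = 1.00), neither past the threshold.

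The other lists also had no member that passed. Neuronal injury and stress genes, such as Atf4 and Gap43, had medians of 0.02 with TBI (4 of 7 higher) and 0.10 with BCAS (5 of 7 higher), and heat shock genes 0.07 and 0.10. In the other analyses the medians of both lists took either sign for each surgery. Hypoxia and glycolysis genes had medians of 0.16 with TBI, 5 of 6 higher, and 0.07 with BCAS, 3 of 6 higher. Over the other analyses the TBI median lay between 0.01 and 0.76, and the BCAS median took either sign. The sum of this list reached 333 CPM in a BCAS+TBI library, against 107 to 160 in the control, BCAS and TBI libraries. Without the 7 nuclei with endothelial UMIs no library exceeded 160. The fit without these nuclei is among the other analyses above, and their part in the TBI median was not tested otherwise. All 7 cholinergic receptor genes were lower with BCAS, with a median of -0.17, and 6 of 7 with TBI, with a median of -0.19. Potassium channel genes were lower in 14 of 19 with TBI and 16 of 19 with BCAS, with medians of -0.08 and -0.10. Over the other analyses the cholinergic median lay between -0.43 and -0.13 for TBI and between -0.33 and -0.14 for BCAS, and the potassium channel median between -0.22 and -0.03 and between -0.18 and -0.02. Other neuronal lists also had mostly lower members. With BCAS these were 11 of 13 ionotropic glutamate receptor genes (median -0.04), 9 of 11 GABA-A genes (-0.06) and 5 of 6 metabotropic glutamate genes (-0.07). With TBI they were 8 of 11 GABA-A genes (-0.15) and 10 of 13 synaptic release genes (-0.11). The summed level of each of these lists was lowest in a BCAS+TBI library, which counts as with both surgeries. For ionotropic glutamate receptor genes it was 8175 CPM against 9432 to 10743 in the control, BCAS and TBI libraries. GABA-A genes had 3091 against 3676 to 4325, and synaptic release genes 13866 against 17738 to 22353. The cholinergic sum was also lowest in BCAS+TBI, at 764 against 851 to 1178. Without the 7 nuclei with endothelial UMIs the lowest cholinergic sum was 851, that of a BCAS library. The lowest sums were then 9157 CPM for ionotropic glutamate receptor genes, 3412 for GABA-A genes and 15501 for synaptic release genes. In BCAS+TBI against TBI, 17 of 19 potassium channel genes were lower with a median of -0.26. Over all genes tested there, 49.5% were higher and the median was -0.004. In BCAS+TBI 2 the potassium channel sum was 9226 CPM against 11747 to 15486 in the other libraries. Without the 7 nuclei with endothelial UMIs the lowest potassium channel sum was 10282. Over the other analyses, among them the fit without these nuclei, the potassium channel median of BCAS+TBI against TBI lay between -0.44 and -0.08. The part of the vessel and blood UMIs in the values of these lists was not tested otherwise.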

How the data were processed

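Nuclei from frozen forebrain were sequenced on the 10x Genomics platform in 8 libraries, 2 per group. The deposited values are raw UMI counts per gene and barcode, made by the authors. The file headers name Cell Ranger 7.0.0, and the submitters' processing notes name GRCm38, mm10 and Seurat. The annotation release is not given in the sources used here. Gene symbols are those of the files, and positions are from GENCODE M21 on GRCm38, where 54079 of 54232 gene IDs matched. The layer 6 nuclei, gene lists and tests were chosen with earlier results of these data known.

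Counts of the selected nuclei were summed per library, since nuclei are not replicates. The sums of all 8 libraries went into 1 model in edgeR 4.0.16 under R 4.3.3, with terms for group and library set and TMM scaling. Genes passed filterByExpr at 10 counts, and two-sided quasi-likelihood tests were adjusted over all genes tested. limma 3.58.1 tested the TBI effect on the within-library difference of log2 levels. Shares of nuclei were tested by exact permutation. The 5 smallest p-values of a comparison were named where fewer than 5 genes passed, without predicted, mitochondrial and sex-linked marker genes and those of the rule. The tests were checked on simulated data. No doublet caller was run, and the rule itself leaves out barcodes with glial or inhibitory markers. Replicate numbers of the labels were not used as pairs in the main model. DESeq2 1.42.0, other gates, scalings and filters, and leaving out each library were the alternatives.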

Additional observations from a re-analysis of the deposited data

How the results depend on the processing

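Counts of genes past the threshold are given in the order TBI, BCAS, interaction, and BCAS+TBI against TBI, and each was 0 as reported. They stayed 0 with RLE normalization, DESeq2, a minimum count of 30 and no term for the library set. Without a filter on low counts they were 32, 25, 21 and 66, where genes with few UMIs enter. A stricter gate (at least 8 UMIs of Foxp2 and Hs3st4) gave 4, 2, 8 and 6, thinning to 4000 UMIs 5, 4, 3 and 7, and a looser gate (at least 2 UMIs) 0, 1, 1 and 1. Without nuclei over 3 times the median UMIs they were 0, 0, 0 and 3. Leaving out each library gave 0 to 126, 0 to 80, 0 to 88 and 0 to 238, with the highest count always without BCAS+TBI 1. Leaving out the 7 nuclei with at least 3 endothelial UMIs, an alternative chosen after seeing the data, gave 2, 0, 0 and 0, and leaving out BCAS+TBI 1 as well gave 20, 6, 4 and 8. The cause of these changes was not tested beyond fewer libraries or nuclei entering each fit.

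For the TBI effect in layer 6 minus mid-layer nuclei the count was 0 to 47 over single libraries left out, 1 without the 7 nuclei and 18 without them and BCAS+TBI 1. Against upper-layer nuclei it was 0 to 30 and, without the 7 nuclei and BCAS+TBI 1, 11. The replicate number as a block in place of the library set gave 0 genes in the 4 comparisons and 3 and 1 against mid-layer and upper-layer nuclei. The deviations of log2 levels from the group mean were correlated between libraries. They gave -0.43 to 0.39 over 12 pairs of the same number and 0.34 to 0.43 for those of the same set. With 2 libraries per group the deviations of a group mirror each other, so the pairs are not independent. By these values libraries of the same set went together and those of the same number did not always do so. Number and set coincide in all groups but BCAS+TBI, so pairing by number apart from the set was not tested.

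The share differences changed sign with small changes. Thinning turned the TBI difference to 0.0616 points, and the looser and stricter gates turned the BCAS difference to 0.0978 and 0.0440 points. Leaving out single libraries gave -0.341 to 0.267 points for TBI and -0.417 to 0.191 for BCAS. Among the genes named, leaving out single libraries gave -7.02 to 0.15 for Mid1 (reversed without TBI 2), -0.51 to 7.25 for Hbb-bs, -0.30 to 7.10 for Hba-a1 and -3.03 to 7.06 for Cldn5 (each reversed without BCAS+TBI 2), and Hbb-bs was -0.18 without the 7 nuclei. Depth limits the smallest libraries most: BCAS+TBI 2 held 44 nuclei.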

Other observations

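Among genes outside the comparisons above, Bdnf, the neurotrophin gene, lay in layer 6 nuclei below both mid-layer and upper-layer nuclei in every library, at 6.62 to 16.7 CPM against 20.7 to 49.9 and 55.3 to 114. Rgs9, a regulator of G-protein signalling known from the striatum, lay above both, at 8.71 to 48.0 against 0 to 6.34 and 0 to 7.10.

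The share of mid-layer nuclei was 1.16% ± 0.0659 (SD, n = 4) of kept barcodes in libraries with TBI and 0.981% ± 0.372 (SD, n = 4) without (exact permutation test, two-sided, p = 0.457, adjusted over both surgeries 0.800). For upper-layer nuclei it was 1.40% ± 0.833 and 1.5% ± 1.01 (SD, n = 4 each, same exact test, p = 0.657, adjusted 1.00).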
